A study of Mus musculus with 24 samples.

Results

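The kidneys of young mice were set against 3 other tissues of young mice. The members were the 3 arrays labelled Kidney at 10W, of 24 arrays in the series, and they were compared with the 9 arrays labelled Liver, Lung and WAT (white adipose tissue) at 10W, 3 for each tissue. All animals were male C57BL/6J mice without a named treatment, 10 weeks old here and 90 weeks old in the other 12 arrays. Total RNA from each homogenized tissue piece was labelled with Cy3 and hybridised to a 1-colour Agilent array. The labels do not say whether 1 mouse gave several tissues, nor which part of the kidney or which fat depot was taken. All arrays of a tissue shared 1 slide and 1 scan, so slide and tissue cannot be told apart, and the genes named below were ranked by large differences only.

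The kidney filters blood at the glomerulus, where podocytes hold the filter, and then recovers most of the filtrate along a tubule whose segments each carry their own set of transporters. The proximal tubule takes back glucose, amino acids, phosphate and filtered proteins and secretes organic anions. The thick ascending limb, the distal convoluted tubule and the collecting duct then set salt, calcium, water and acid balance, and the kidney also makes renin and activates vitamin D.

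Throughout, a level is the log2 processed signal of a gene's probe minus the 75th percentile of that array, so that 0 is the array's own 75th percentile and 1 unit is a doubling. Levels were compared between tissues and not between genes. A gene was called kidney-high where the kidney mean exceeded the mean of each of the 3 other tissues by at least 2 log2 units (4-fold) with a limma adjusted p under 0.05 for every one of the 3 differences, and kidney-low where it was below each of them by as much. Where a tissue had no array well above background, the fold is a lower bound, taken from the dimmest signal well above background on each of its arrays, and is written as at least that fold. Such a bound holds for the main processing only, and other settings gave smaller differences for some genes. In whole tissue, fewer cells of a type and less RNA per cell cannot be told apart.

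The 3 kidney arrays resembled each other closely. Across genes, their pairwise Pearson correlations were 0.993, against 0.834 to 0.843 between kidney and liver arrays, 0.814 to 0.819 between kidney and lung arrays and 0.834 to 0.857 between kidney and WAT arrays. The median SD of a gene over the 3 kidneys was 0.14, against 0.22 in liver, 0.13 in lung and 0.32 in WAT. The 75th percentile signal itself was 460 to 618 in the kidney, 259 to 307 in liver, 844 to 914 in lung and 763 to 819 in WAT, and 58.6% to 69.8% of probes were well above background.

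One array among the comparison tissues stood apart. WAT replicate 1 carried a summed signal of 612 over 8 epididymis markers, in units of its 75th percentile, against 0.483 and 2.02 in WAT replicates 2 and 3 and 0.468 to 0.495 in the kidneys. It exceeded both other WAT arrays by at least 2 log2 units for 5.34% of the genes tested and for 189 of the kidney-high genes (22.4%). The number of kidney-high genes was 925 without it, and the part of that array in single results was not tested beyond the values given beside them. Among the kidneys, red blood cell markers varied, with a summed signal over 4 genes of 433.8, 12.7 and 150.0 in replicates 1 to 3. The adipocyte marker Adipoq, a hormone gene of fat cells, stood at -2.98 in kidney replicate 1 and at -7.40 and -7.45 in the others.

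Of 33265 genes tested, 844 were kidney-high (2.54%) and 381 were kidney-low (1.15%). Against the mean of the 3 other tissues, which a single low tissue can move, 2082 genes were higher in the kidney (6.26%) and 2070 lower (6.22%) by at least 4-fold. On all 12 arrays, 289 of the kidney-high and 214 of the kidney-low genes were well above background. Over these the median smallest difference was 2.83 log2 units for kidney-high and 2.59 units for kidney-low genes. The tissue nearest to the kidney was liver for 127 of the 289, WAT for 81 and lung for 81. In 818 of the 844 every kidney array lay above every other array, a pattern that 12.2% of all genes tested showed, and in 377 of the 381 every kidney array lay below, against 7.86% of all genes. Among the kidney-high genes, 181 were well above background on all 3 kidney arrays and on none of the other 9, a pattern that 336 of all genes tested showed.

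**Figure D1:**
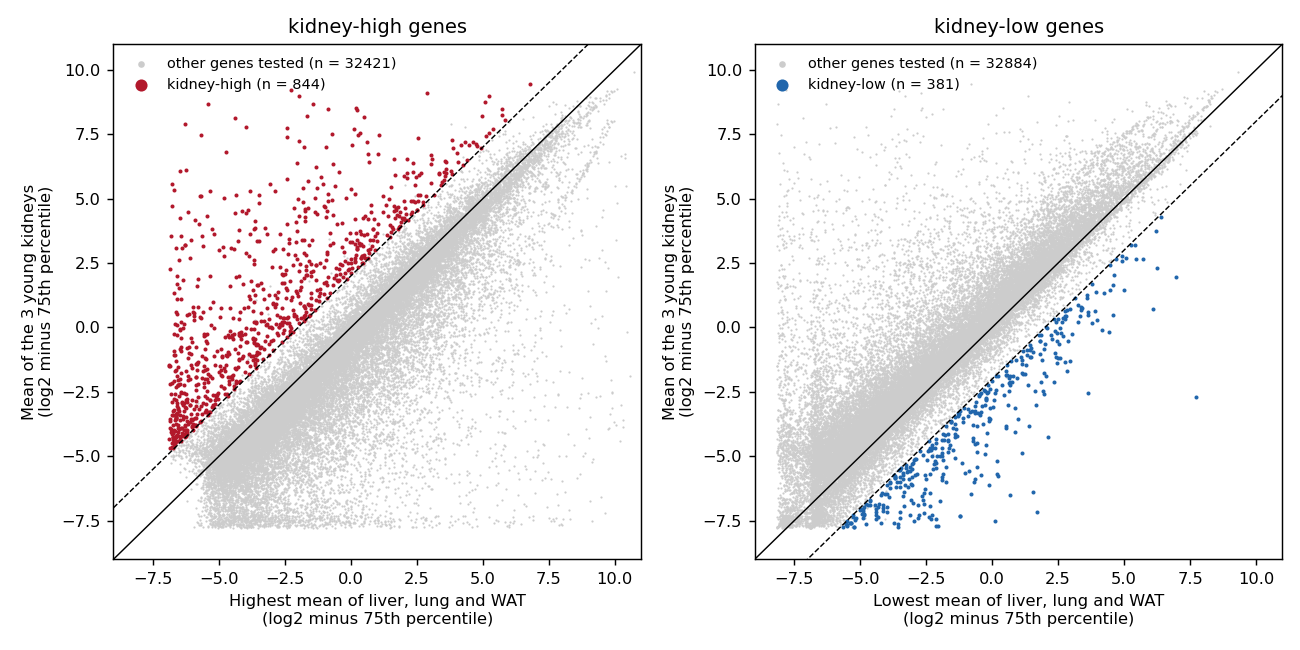
Mean level of each of the 33265 genes in the 3 young kidneys (vertical axis, log2 minus the 75th percentile) against the highest (left) or the lowest (right) mean of young liver, lung and WAT (horizontal axis, same units). The solid line marks equal levels and the dashed line a 4-fold difference. The 844 kidney-high genes (red) and the 381 kidney-low genes (blue) are marked, and probes not above background are drawn at their measured value.

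Among genes with a symbol that were measured on all 12 arrays, Miox stood furthest above its nearest tissue. Miox encodes myo-inositol oxygenase, which opens the inositol ring in the first step of its breakdown in the proximal tubule. Its level was 8.86, 8.98 and 9.12 in the kidneys, -2.24, -1.48 and -2.23 in liver, -3.25 to -3.05 in lung and -3.41 to -3.25 in WAT. The kidney was 2004-fold above liver, a difference of 10.97 ± 0.19 (SE, n = 3 arrays a tissue, largest adjusted p 5.87e-11). Spink1, a trypsin inhibitor of the Kazal type, followed with 942-fold. The phosphate cotransporter Slc34a1 reached 593-fold, the organic anion transporter Slc22a6 297-fold and its relative Slc22a8 150-fold, each against liver.

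Among genes that were well above background in the kidney only, the bounds were larger. Akr1c21, an aldo-keto reductase that acts on steroids, stood at 7.81, 7.94 and 7.96 in the kidneys and was at least 6006-fold above each other tissue. Hsd3b4, a steroid dehydrogenase of the 3-beta family, was at least 4461-fold higher, with kidney levels of 7.28, 7.59 and 7.55. The calcium-binding protein gene Calb1 followed with at least 1707-fold, the sulfate cotransporter gene Slc13a1 with at least 1198-fold and the potassium channel gene Kcnj1 with at least 1018-fold. Below these came the sodium-potassium-chloride cotransporter Slc12a1 with at least 852-fold, the hydroxyacid oxidase Hao2 with at least 659-fold, Slco1a6 (473-fold), Slc51a (294-fold), Mep1b (292-fold), Slc22a22 (228-fold) and Slc12a3 (215-fold), all as lower bounds. These 12 genes and the 5 above hold members of the proximal tubule, the thick ascending limb and the distal convoluted tubule, and the segments are described in that order.

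**Figure D2:**
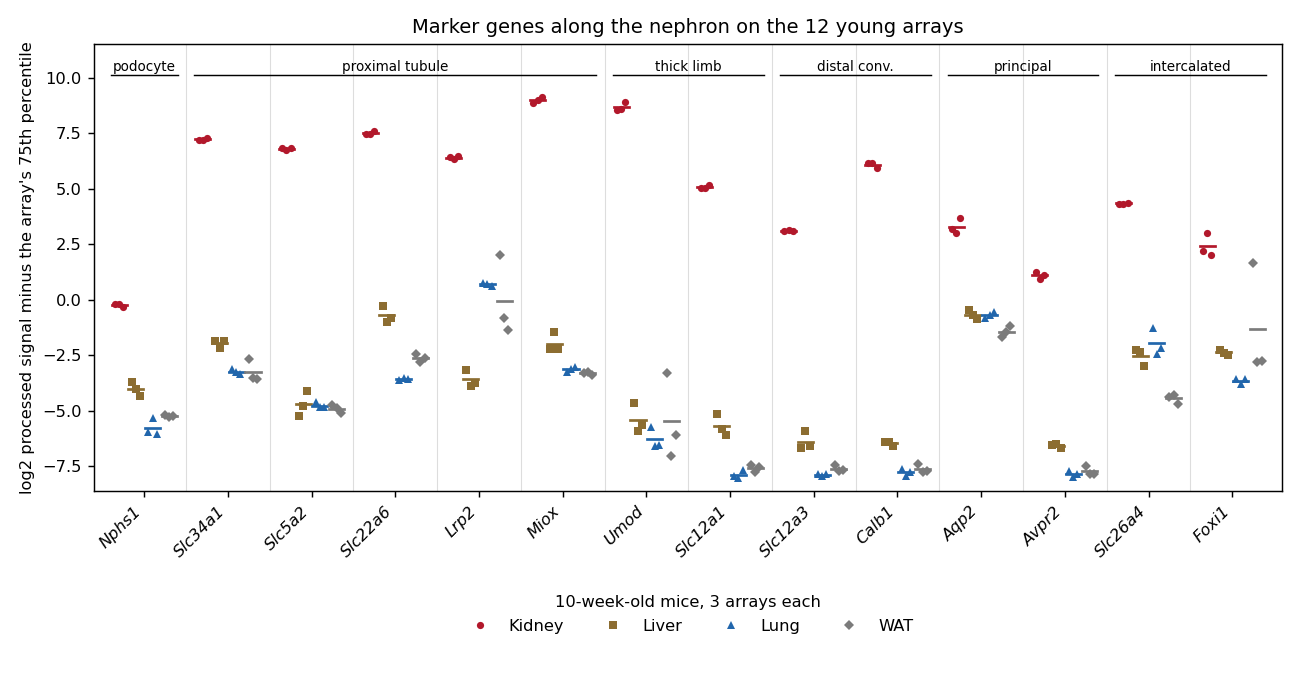
Levels of 14 marker genes of the nephron on the 12 young arrays (vertical axis, log2 processed signal minus the array's 75th percentile), with 1 point per array and a bar at each tissue mean, 3 arrays a tissue. Every kidney point lies above every point of the other tissues for all 14 genes, by the least for Foxi1 (2.02 in the lowest kidney and 1.64 in WAT replicate 1). All 14 were chosen among kidney-high genes, so the separation largely follows from that choice. In the full lists, 2 of 14 podocyte and 5 of 14 principal cell genes tested were kidney-high.

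Podocyte genes were kidney-high in 2 of 14 tested (14.3%, against 2.54% of all genes). Among the 2 was Nphs1, which encodes nephrin of the slit diaphragm. Nphs1 was 13.7-fold above liver, from kidney levels of -0.19, -0.22 and -0.34. The kidney had the highest mean of the 4 tissues for 4 of the 14, against 7289 of all 33265 genes tested. Podxl, which encodes the surface sialoprotein podocalyxin, was at 0.87 to 0.90 in the kidneys and at 1.85 to 2.08 in lung. The transcription factor gene Wt1 averaged 1.48 in the kidneys and 1.55 in WAT, and the chloride channel protein gene Clic3 was 4.42 units lower in the kidney than in lung. Kirrel2, a relative of nephrin, did not reach the background filter and was not tested. The median difference from the mean of the other tissues was 1.51 for the list, against 0.01 for all genes tested.

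Transporters and receptors of the proximal tubule made up the list with the highest share of kidney-high genes, 32 of 37 tested (86.5%, against 2.54% of all genes). The median difference from the mean of the other tissues was 8.50 units. The summed signal of the 37 genes, in units of the 75th percentile, was 1758, 1834 and 1881 in the kidneys, 134.9 to 142.5 in liver, 12.2 to 13.1 in lung and 10.7 to 12.8 in WAT. The glucose cotransporter Slc5a2 (SGLT2) stood at 6.85, 6.72 and 6.84 in the kidneys and was 11.57 units above lung, with -5.24, -4.79 and -4.14 in liver, where 1 of 3 arrays measured it, while Slc5a1 (SGLT1) was 9.96-fold above lung. The urate transporter Slc22a12 was at least 978-fold higher than each other tissue. The brush border amino acid transporters Slc6a19 and Slc6a18 were at least 556-fold and 456-fold higher, and Slc7a9, the light chain of the cystine transporter, was 81.7-fold above WAT (without WAT replicate 1 its smallest difference was 6.78 units in place of 6.35). Its partner Slc3a1 was 10.2-fold above liver.

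The endocytic receptor genes of the same segment were kidney-high as well. Lrp2, which encodes megalin, stood at 6.43, 6.32 and 6.45 in the kidneys, at 0.62 to 0.76 in lung and at 2.02, -0.82 and -1.36 in WAT, 52.2-fold above lung. Cubn (cubilin) was 721-fold above WAT and Amn (amnionless), which anchors it, 559-fold above liver. The 5 members that were not kidney-high were close to another tissue. Slc22a30, the organic anion transporter gene Slco1a1 and the sulfate exchanger gene Slc26a1 were within 1 unit of liver and Slco4c1 within 1 unit of lung, each at least 2 units above both remaining tissues. The glucose carrier Slc2a2 was 1.21 units lower in the kidney than in liver. Slc22a7, an organic anion transporter with kidney levels of 5.82, 6.05 and 6.21, was 5.73-fold above liver.

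Enzymes and other proteins of the proximal tubule were kidney-high in 24 of 41 genes tested (58.5%), with a median difference of 6.95 from the mean of the other tissues. The metalloprotease gene Mep1a stood at 7.93, 8.17 and 8.30 in the kidneys, at or below -6.59 in liver and lung, and at 0.45, -7.87 and -5.77 in WAT, where only replicate 1 was above background. Cltrn, which encodes collectrin and helps to place amino acid transporters in the brush border, stood at 7.70, 7.85 and 7.78 in the kidneys, at or below -5.19 in liver and lung, and at -1.96, -6.23 and -3.78 in WAT, where 2 of 3 arrays measured it. Acsm2, an acyl-CoA synthetase, was 1113-fold and the nuclease Dnase1 1149-fold above liver. The gamma-glutamyl transferase gene Ggt1 stood at 5.54, 5.47 and 5.67 in the kidneys, at or below -3.82 in liver and lung, and at 1.79, -7.75 and -3.27 in WAT, where 2 of 3 arrays measured it. Gatm, which makes the creatine precursor guanidinoacetate, was 51.7-fold above liver. Trehalase (Treh) was 57.7-fold above liver.

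The other 17 genes of that list did not meet the rule. Among them, the aminopeptidase Anpep averaged 5.26 in the kidneys and 5.30 in liver, and Enpep 1.90 in the kidneys and 1.84 in WAT. Agmat was 5.73 and Cyp4a14 4.67 units lower in the kidney than in liver. The scaffold protein gene Pdzk1 was 3.46 units above its nearest tissue and its partner Pdzk1ip1 4.13 units, but the largest adjusted p was 0.0873 and 0.0878. In both genes WAT replicate 1 (3.54 and 5.55) was far above WAT replicate 2 (-5.07 and -4.78). Napsa, an aspartic protease that the lung epithelium also makes, was kidney-high with 7.18, 7.16 and 7.25 in the kidneys and 4.38 to 4.94 in lung, 5.98-fold.

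Genes known to respond to androgens in the male mouse kidney included some of the highest differences. Of 9 tested, 4 were kidney-high (44.4%, against 2.54% of all genes). Kap (kidney androgen regulated protein) stood at 9.10, 9.20 and 9.37 in the kidneys, at or below -5.95 in liver and lung, and at 0.32, -3.90 and -3.21 in WAT. The kidney was 11.48 units above WAT, and 12.78 units without WAT replicate 1. Odc1, the first enzyme of polyamine synthesis, was 10.1-fold above liver and the amino acid transporter Slc7a13 at least 1716-fold above each tissue. Acsm3 was 5.11-fold above liver. Cyp7b1, a hydroxylase of oxysterols and steroids, was within 1 unit of liver, and Gusb (beta-glucuronidase) averaged 2.32 in the kidneys and between 2.05 and 2.84 in the other tissues. Only males were sampled, so no sex difference could be examined.

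Of 7 genes of gluconeogenesis tested, 4 met the rule for a gene shared with liver (within 1 unit of liver and at least 4-fold above the other 2 tissues), as 441 of all 33265 genes did. None of the 7 was kidney-high, and the median difference of the list was -0.51 from liver, 5.44 from lung and 3.42 from WAT. Fbp1 (fructose bisphosphatase) stood at 8.39, 8.52 and 8.56 in the kidneys, 8.85 to 9.24 in liver and -2.45 to -0.81 in lung. G6pc, the catalytic subunit of glucose-6-phosphatase, stood at 6.18, 5.88 and 6.52 in the kidneys and 6.33 to 7.29 in liver, a difference of -0.72. Both met that rule, as did Slc37a4. G6pc3, another glucose-6-phosphatase subunit, stood at 4.18, 4.23 and 4.24 in the kidneys, 1.16 to 1.37 in liver and 3.54 to 3.79 in WAT. Pck1, the enzyme that makes phosphoenolpyruvate from oxaloacetate, was 1.05 units lower in the kidney than in liver, and its difference of 0.59 from WAT did not pass the test.

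Thick ascending limb genes were kidney-high in 13 of 19 tested (68.4%), with a median difference of 7.36. Umod encodes uromodulin, the main protein of normal urine. It stood at 8.55, 8.59 and 8.91 in the kidneys and was at least 10336-fold above each other tissue (1 of the 3 WAT arrays measured it). Slc12a1, the target of loop diuretics, and Kcnj1 (ROMK), which returns potassium to the lumen, are given above. Egf, the epidermal growth factor precursor, was 249-fold above WAT, where replicate 1 (2.14) stood apart from the other two (-2.62 and -2.36). Without that array its smallest difference was 9.50 units in place of 7.96. Bsnd (barttin), a subunit of chloride channels, was at least 225-fold and the calcium sensing receptor gene Casr at least 81.0-fold higher. Cldn16 and Cldn19, which line the paracellular path for magnesium and calcium, were at least 27.2-fold and 32.8-fold higher. Cldn14 was 3.26 units lower in the kidney than in liver, and Nos1 was not tested.

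Distal convoluted tubule genes were kidney-high in 10 of 14 tested (71.4%), with a median difference of 5.29. The thiazide-sensitive cotransporter gene Slc12a3 stood at 3.11, 3.13 and 3.07 in the kidneys and at or below -5.93 on every other array. Calb1, which buffers calcium on its way through the cell, stood at 6.16, 6.15 and 5.95. Fxyd2, a regulatory subunit of the sodium pump, was 73.4-fold above WAT and the potassium channels Kcnj16 and Kcnj10 342-fold and 49.3-fold above liver. The kinase gene Wnk4, which regulates Slc12a3, was 15.8-fold above lung, and Pvalb (parvalbumin) 7.40-fold above liver. The calcium channel gene Trpv5 was at least 8.97-fold higher, while the magnesium channel gene Trpm6 differed by -0.85 from lung, which did not pass the test. Wnk1, Cnnm2 and Slc16a7 were within 1 unit of at least 1 other tissue.

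Collecting duct principal cell genes gave a lower count, 5 of 14 tested (35.7%), with a median difference of 2.60. The water channel gene Aqp2 stood at 3.17, 3.01 and 3.67 in the kidneys and between -1.70 and -0.48 elsewhere, 15.7-fold above liver. Aqp3, the basolateral water channel, was 51.4-fold above lung. Avpr2, the vasopressin receptor that drives Aqp2 to the membrane, stood at 1.26, 0.92 and 1.09 and was at least 53.5-fold above each other tissue, none of which measured it. Hsd11b2, which protects the mineralocorticoid receptor from glucocorticoids, was at least 43.1-fold and Fxyd4 88.4-fold higher. Of the subunits of the epithelial sodium channel, Scnn1b was 1.18 and Scnn1g 1.93 units lower in the kidney than in lung. For Scnn1a the difference was -1.39 (adjusted p 0.0515), from 3.70 to 3.88 in the kidneys and 5.12 to 5.30 in lung.

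Intercalated cell genes were kidney-high in 11 of 19 tested (57.9%), with a median difference of 4.65. Slc26a4 (pendrin), the chloride-bicarbonate exchanger of base-secreting cells, stood at 4.32, 4.32 and 4.37 in the kidneys, 79.5-fold above lung. Slc4a1, the exchanger of acid-secreting cells and of red blood cells, was 17.6-fold above liver, with kidney levels of 2.09, 1.64 and 1.72, while Hba-a1, an alpha globin gene, stood at 8.50, 3.02 and 6.98 in the same kidneys. The proton pump subunits Atp6v0a4 and Atp6v1b1 were 54.7-fold and 12.3-fold above lung. The receptor genes Insrr and Oxgr1 were 27.0-fold and at least 72.5-fold higher. Foxi1, the transcription factor of this cell type, averaged 2.40 ± 0.53 (SD, n = 3) in the kidneys and was 13.2-fold above WAT, with a smallest difference of 3.72 units, or 4.79 units without WAT replicate 1. That array was close to the kidneys for Foxi1 (1.64) and for the ammonia channel Rhcg (4.56, against 4.58 to 4.71 in the kidneys).

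Renal endocrine and renin-angiotensin genes were kidney-high in 6 of 14 tested (42.9%). Ren1 (renin) averaged 0.90 in the kidneys, where its lowest level was 0.59, and stood between -3.44 and -1.37 elsewhere, 5.77-fold above liver. Kl, which encodes the FGF23 coreceptor klotho, stood at 5.02, 5.02 and 4.96 and was at least 806-fold higher than each other tissue. The vitamin D genes belonged here too. Vdr, the receptor, was 33.6-fold above lung and Cyp24a1, which degrades the hormone, at least 313-fold above each tissue. Cyp27b1, which makes the hormone, had the highest SD over the kidneys among the kidney-high genes with a symbol (0.90), from levels of -1.69, -2.11 and -0.39, and was 4.75-fold above liver. Agt (angiotensinogen) was 3.96 units lower in the kidney than in liver and Ace 1.33 units lower than in lung. Epo was not tested.

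Transcription factors of the nephron were kidney-high in 11 of 36 tested (30.6%), namely Pax8, Lhx1, Emx1, Pou3f3, Sim1, Tfap2b, Tfcp2l1, Foxi1, Osr2, Esrrb and Esrrg. Lhx1, a homeobox gene of early nephron formation, was 24.1-fold above liver and the orphan receptors Esrrb and Esrrg 22.8-fold and 25.9-fold above liver. This count rested on WAT replicate 1 more than the others did. Pax8, which the kidney keeps from development, stood at 2.47, 2.42 and 2.41 in the kidneys and at 2.43, -5.80 and -3.27 in WAT, and Tfap2b at 1.92, 2.12 and 1.81 in the kidneys and 2.78, -7.95 and -7.90 in WAT. Without that array 18 of the 36 were kidney-high, and with the methods' t-test after adjustment 5. The factors shared with liver included Hnf4a, Hnf4g and Sall1. Hnf4a stood at 6.90, 7.03 and 6.85 in the kidneys and 7.29, 7.51 and 7.79 in liver. Irx1, Irx3, Gata3 and Mecom were shared with lung, and Wt1 and Hoxd4 with WAT.

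Of 30 Hox genes tested, 6 were kidney-high (Hoxa10, Hoxa11, Hoxb9, Hoxc10, Hoxc11 and Hoxd10), against 2.54% of all genes, and 4 more were shared with WAT. Hox genes mark position along the body axis. Hoxc9 stood at 1.53, 1.58 and 1.48 in the kidneys and 1.01, 1.69 and 1.65 in WAT, and was not above background on any liver or lung array, so that the kidney was at least 72.6-fold above liver and 164.5-fold above lung.

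Genes of epithelial adhesion were kidney-high in 4 of 19 tested (21.1%). Cdh16, the kidney cadherin, stood at 7.46, 7.44 and 7.54 in the kidneys and was 84.7-fold above lung (largest adjusted p 0.0202), with 4.53, -6.54 and -0.29 in WAT. Cldn10, with Cldn16 and Cldn19, completed the 4. Cldn2, which carries sodium between proximal tubule cells, was 2.67 units above liver and Cldn8 4.26 units above lung, and neither met the adjusted p. The mucin gene Muc1 was 4.42 units lower in the kidney than in lung and the keratin gene Krt18 4.05 units lower than in liver. For Cdh1 (E-cadherin), Krt8 and Cldn7 the differences from lung were -0.81, -0.67 and -1.46 and did not pass the test.

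**Figure D3:**
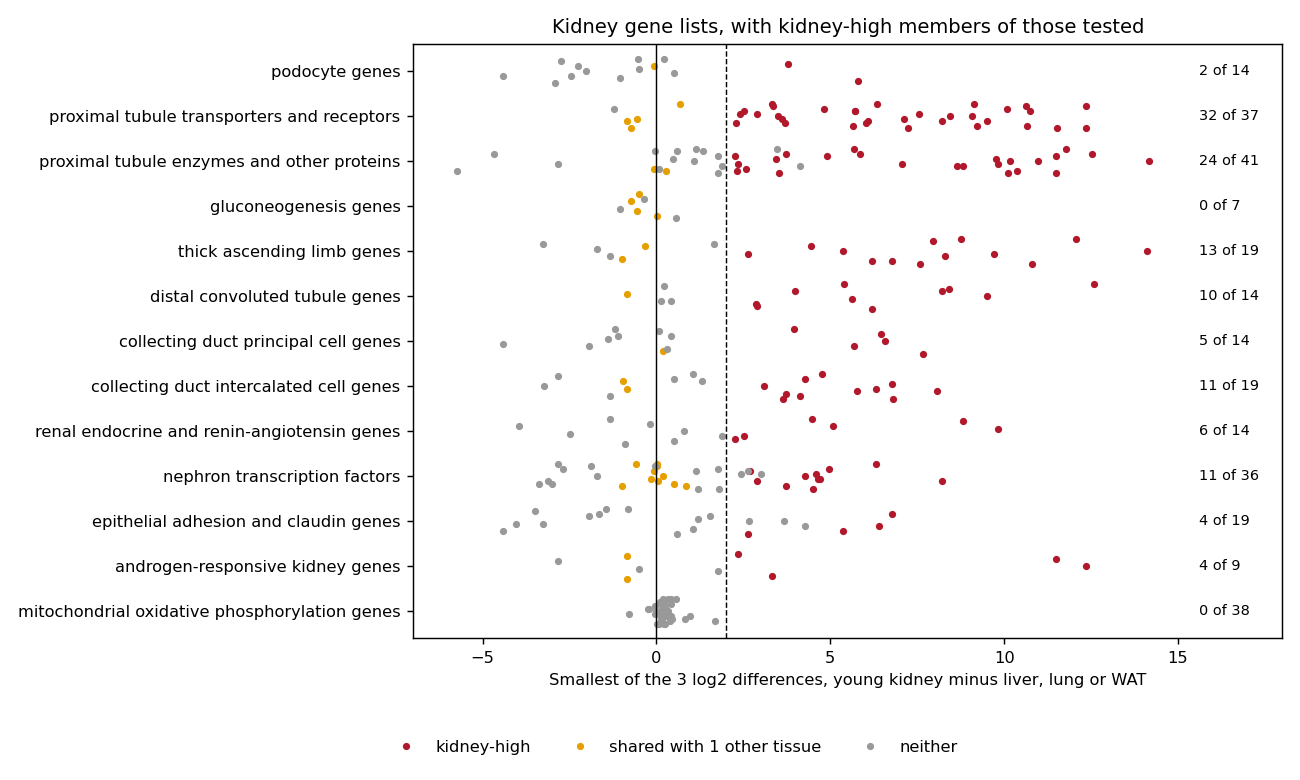
Each point is a tested gene of 1 of 13 lists, placed at the smallest of its 3 log2 differences, young kidney minus liver, lung or WAT (horizontal axis), with its class by colour. The dashed line marks 2 log2 units, and grey points beyond it missed the adjusted p. Kidney-high members of those tested are counted at the right, from 0 of 38 for oxidative phosphorylation to 32 of 37 for proximal tubule transporters.

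Mitochondrial genes showed another pattern. None of 38 oxidative phosphorylation genes tested was kidney-high, against 2.54% of all genes. With that share, a list of 38 says little by such a count. The kidney had the highest mean of the tissues compared for 32 of the 38, against 7289 of all 33265 genes tested. The median difference of the list was 0.21 from liver, 2.20 from lung and 1.13 from WAT. Atp5b, the catalytic beta subunit of the ATP synthase, averaged 8.79 in the kidneys and 8.57 in liver, and 6.60 in lung. Cycs (cytochrome c) was 0.98 units above liver and Uqcrq, a subunit of complex III, 0.78 units below it.

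Counted by gene family, the solute carriers held 59 kidney-high genes of 346 tested (17.1%, against 2.54% of all genes) and 4 kidney-low genes (Slc17a9, Slc28a2, Slc39a4 and Slc9a9). Among 8 subfamilies that were counted, the shares were highest in the sodium-glucose family Slc5 (7 of 10 tested), the phosphate family Slc34 (2 of 3) and the sulfate and dicarboxylate family Slc13 (3 of 5). In the organic ion family Slc22, 10 of 25 were kidney-high, and in Slc6 and Slc7, which include amino acid transporters, 5 of 16 each. Of 23 genes with a kallikrein symbol (Klk) tested, 13 were kidney-high, all of them Klk1 or its close relatives named Klk1b. Klk1, the true tissue kallikrein, stood at 8.48, 8.45 and 8.54 in the kidneys and was 657-fold above liver. These genes are near-identical copies, and their probes may share signal, so the values of single Klk1b genes are uncertain. WAT replicate 1 was also apart for them (Klk1b5 at 0.92, against -4.51 and -4.51). Of the cytochrome P450 genes, 5 of 91 tested were kidney-high, as were 2 of 10 aquaporins and none of 21 glutathione transferases.

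Promoter sequence was available for 456 of the 589 kidney-high genes with a symbol, from RefSeq on GRCm38.p6, as the 250 bases before each annotated start. The motif TATAAA stood in 71 (15.6%) of the kidney-high windows, 15.2% of the kidney-low windows and 1631 of all 14831 genes with a window. CAAAGTCCA, a core of HNF4 binding, stood in 3 kidney-high windows (0.658%, of which Slc3a1 and Treh are proximal tubule genes) and in 0.519% of all. It stood in 5 of 224 kidney-low windows (2.23%), among them those of the similarly named genes Pilra, Pilrb1 and Pilrb2. Both motifs were read on either strand, and a further motif that was searched is not reported here. A match is a run of letters and was not tested for binding. A few genes with a large or well known kidney signal carried TATAAA close to the start, and are printed to show its place, as 100 bases, 5′ to 3′ on the gene's strand, with the match in capitals. The match began 40 bases before the annotated start in Miox, 31 in Kap and 29 in Ren1.
Miox (chr15:89334373-89334472, + strand): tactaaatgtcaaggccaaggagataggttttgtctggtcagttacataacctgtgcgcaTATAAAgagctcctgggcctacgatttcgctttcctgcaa
Kap (chr6:133853668-133853767, - strand): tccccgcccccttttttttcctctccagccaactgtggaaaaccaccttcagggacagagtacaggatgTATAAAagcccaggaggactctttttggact
Ren1 (chr1:133350574-133350673, + strand): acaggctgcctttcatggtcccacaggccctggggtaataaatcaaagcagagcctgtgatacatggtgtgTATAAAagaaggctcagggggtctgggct

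Among genes with a symbol that were measured on all 12 arrays, Hp stood furthest below its nearest tissue. Hp (haptoglobin), which binds free hemoglobin in plasma, stood at -1.82, -3.08 and -3.18 in the kidneys, 9.04 to 9.59 in liver, 7.64 to 7.77 in lung and 7.91 to 8.68 in WAT. The kidney was 1354-fold below lung, its nearest tissue, a difference of -10.40 ± 0.35 (SE, n = 3, largest adjusted p 4.53e-09). Aox1 (aldehyde oxidase) was 82.9-fold below lung and Rbp4, the plasma carrier of retinol, 72.5-fold below lung. Aldh1a1, which makes retinoic acid, was 41.3-fold below WAT. C3 of the complement system stood at 2.06, 1.94 and 1.88 in the kidneys and 6.28 to 10.17 on the 9 other arrays, 32.5-fold below lung. Ear2, an RNase of eosinophils and macrophages, was 30.2-fold below liver, and the protease inhibitor gene Serpina3m and the apolipoprotein gene Apoc1 were 25.6-fold and 24.4-fold below lung.

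Another group was not well above background on any kidney array and was measured on all 9 others. Serpina3n was at least 139-fold, Wfdc21 at least 127-fold, the serum amyloid gene Saa3 at least 69.2-fold and the matrix protein gene Spon2 at least 47.2-fold lower in the kidney than in the nearest tissue. In all, 70 kidney-low genes had this pattern, of 100 among all genes tested. By family, 5 of 24 Serpina genes tested were kidney-low, against 1.15% of all genes (Serpina3c, Serpina3j, Serpina3k, Serpina3m and Serpina3n).

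**Figure D4:**
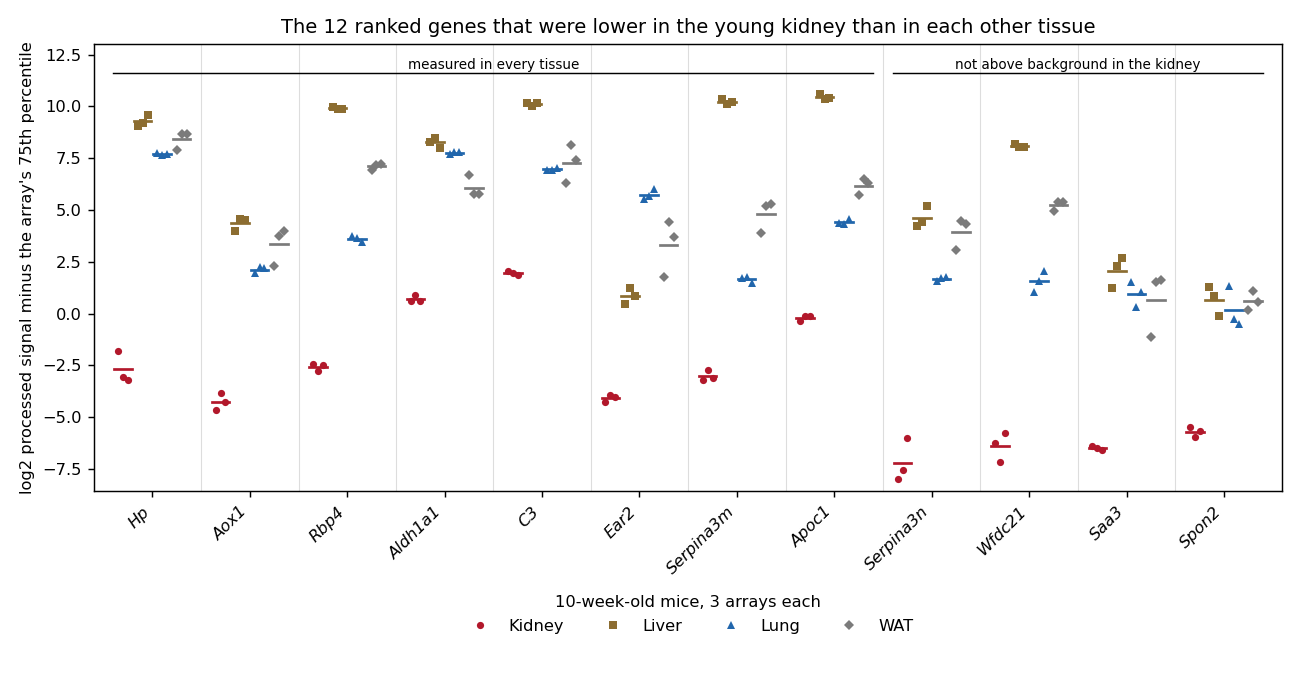
Levels of the 12 ranked kidney-low genes on the 12 young arrays (vertical axis, log2 processed signal minus the array's 75th percentile), with 1 point per array and a bar at each tissue mean, 3 arrays a tissue. All kidney points lie below all points of the other tissues. For Hp the kidneys lie between -3.18 and -1.82 and the other arrays between 7.64 and 9.59.

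Markers of immune and connective tissue cells were among the kidney-low genes. Of 12 macrophage and neutrophil markers, 5 were kidney-low (Adgre1, Cd68, Lyz2, Mrc1 and Ear2). By at least 4-fold, 11 were lower than the mean of the other tissues, with a median difference of -3.62. Among all genes, 1.15% were kidney-low and 6.22% were lower than that mean by as much. Mrc1, the mannose receptor of tissue macrophages, stood at -2.51, -2.58 and -2.29 in the kidneys and 1.78 to 3.40 elsewhere, 20.7-fold below lung. Of 12 smooth muscle and fibroblast markers, Dcn, Lum and Postn were kidney-low, and Dcn (decorin) was 8.22-fold below lung. Of 12 adipocyte markers, 5 were kidney-low (Plin4, Cidec, Cfd, Pparg and Adrb3). None of 12 endothelial markers was kidney-high or kidney-low, with medians of 0.61 from liver, -2.02 from lung and -0.73 from WAT. None of 11 B and T cell markers tested was kidney-high or kidney-low. With shares of 2.54% and 1.15% among all genes, lists of 11 or 12 say little by such counts.

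Markers of neighbouring and foreign tissues were counted against 2.54% kidney-high and 1.15% kidney-low among all genes. Of 15 hepatocyte markers none was kidney-high and 1, Ahsg (fetuin-A), was kidney-low. None of 6 adrenal cortex markers, 7 urothelium markers and 8 epididymis markers tested was kidney-high or kidney-low. Of 13 lung epithelium markers, Napsa was kidney-high and the secretoglobin gene Scgb3a1 kidney-low, and of 8 pancreas markers tested the elastase gene Cela1 was kidney-high, 4.19-fold above liver. Scgb3a1 was not above background on any kidney array, and the kidney was at least 1.74-fold below WAT. In kidney replicate 1, Hp (-1.82) and Cfd (0.24, against -4.90 and -4.75) were higher than in the other kidneys, as was Adipoq. Cfd, the adipocyte serine protease also called adipsin, was nearest to liver (largest adjusted p 0.0223).

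Some genes set the kidney and 1 other tissue apart from the remaining pair. There were 441 such genes for liver, 139 for lung and 81 for WAT. With liver, the kidney shared Cyp2j5, an epoxygenase (6.70, 6.83 and 6.72 in the kidneys, 5.79 to 6.04 in liver, not above background in lung or WAT), Rdh16f2, the glycine conjugating enzyme Glyat and the export pump Abcc2 (MRP2). Cckar, the receptor for cholecystokinin, was shared with lung (3.06, 3.24 and 3.47 in the kidneys, 2.54 to 2.67 in lung), together with the neuromedin receptor Nmur2, Prr15l and Irx1. WAT replicate 1 stood apart for all 3, with WAT levels of -2.15, -6.34 and -5.10 for Nmur2, 1.75, -3.57 and -1.48 for Prr15l and 2.12, -4.76 and -4.93 for Irx1. Irx1 kept the call in 14 of the 22 alternative settings that used the 4-fold threshold, the adjusted p and the young arrays. Other named calls were also unsteady over these 22. Smcp kept its call in 12, Wt1 in 15, Pax8, Tfap2b and Gata3 in 16 each, and Rhcg and Cfd in 17 each. Beside Hoxc9, Hoxc6 and Hoxd4, WAT shared Smcp, for which the 3 WAT arrays were at 5.23, -5.03 and -0.55, so that its mean describes none of them.

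The same contrast was taken in the 12 arrays of 90-week-old mice. Kidney minus the mean of the other tissues differed between the ages in 18.6% of all genes tested (limma, adjusted p under 0.05), in 42.4% of the kidney-high and in 66.4% of the kidney-low genes. These genes were chosen on the young arrays, which fixes part of the direction toward 0. The contrast alone does not say whether the kidney or the other tissues moved, and this was not tested. The median contrast was 4.48 in young and 3.54 in aged mice over the kidney-high genes and -4.06 and -2.13 over the kidney-low genes. At 90 weeks 715 genes were kidney-high by the same rule, 532 of them shared (63.0% of the young and 74.4% of the aged list), and 118 were kidney-low, 74 of them shared (19.4% and 62.7%). Miox, Umod and Kl did not pass the test of the difference between ages, and Pvalb, Calb1 and Mep1b did, with changes of -4.29, -2.55 and -3.43. Calb1 stood at 3.22, 3.64 and 3.67 in the aged kidneys and at or below -6.7 on the other aged arrays. C3 stood at 7.43, 7.28 and 7.09 in the aged kidneys, 9.85 to 10.32 in aged liver, 7.20 to 7.35 in aged lung and 8.53 to 8.97 in aged WAT. Young levels of both are given above, and the other named genes were not sorted by the tissue that moved.

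**Figure D5:**
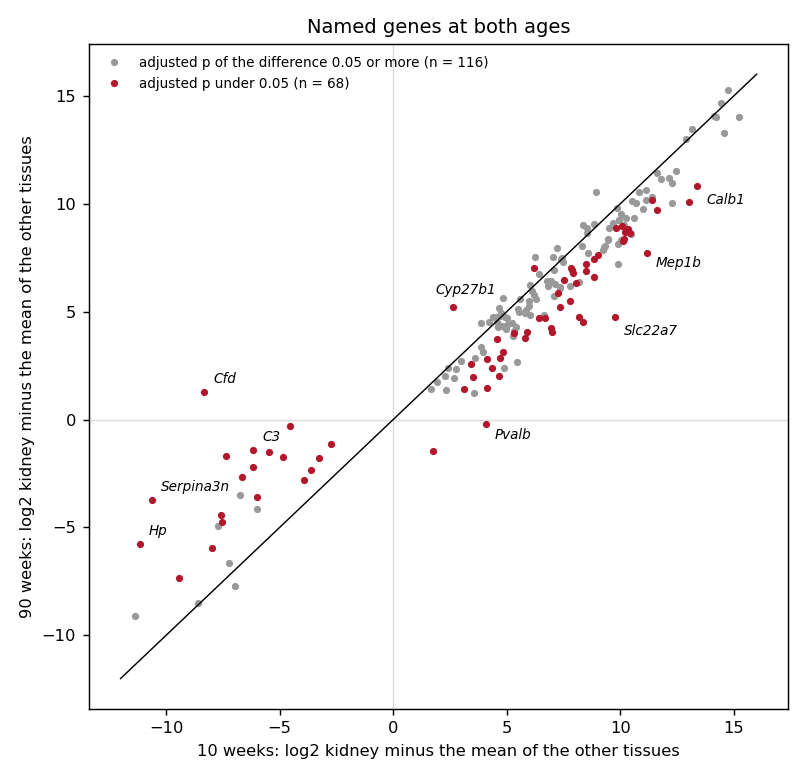
Kidney minus the mean of liver, lung and WAT (log2 units) at 10 weeks (horizontal axis) and at 90 weeks (vertical axis) for the 184 named genes, 12 arrays at each age. The line marks equal contrasts, and red points are the 68 genes whose contrast differed between ages. Of the 19 red points left of 0 all lie above the line, and of the 49 right of 0, 47 lie below it.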

How the data were processed

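The 12 young arrays were analysed, with the 12 aged arrays for 1 added contrast. Per the file headers the intensity values are Agilent's processed signal, background-subtracted and spatially detrended by Agilent Feature Extraction 11.0.1.1, and the authors deposited 1 unscaled file per array. The study's methods name a human array kit, whereas the headers give a mouse design on mm9. Here the deposited intensity was turned into log2 units and each array's 75th percentile over non-control probes was subtracted. A 75th percentile scaling sets each array's upper range equal, so a shift shared by most genes of a tissue cannot be seen. Of 56605 probes, 32994 (58.3%) had an accession with a RefSeq symbol, and other genes keep their accession unnamed. Spots of a probe were averaged, control spots and outlier flags left out (40 to 132 spots per young array), and no spot was saturated.

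A gene was read from its probe with the highest mean over the 12 young arrays, and was tested where that probe was well above background on at least 3 of them. Group means were fitted with limma 3.58.1 (R 4.3.3), with Benjamini-Hochberg adjustment over all genes tested for each contrast. The genes, lists and families were chosen with earlier results of these data known, so no list was given a test. Genes named are the 12 highest by smallest difference among kidney-high genes measured on all 12 arrays, the 12 highest by lower bound among those seen in the kidney alone, 8 and 4 kidney-low genes by the same measures, 4 for each shared class, and any member of a list or family. The replicates are separate samples by their labels, but nothing says that they are separate litters or days, so the p-values measure the spread between these samples, and 3 arrays a tissue limit the precision. Same-numbered samples of different tissues deviated together no more than differently numbered ones (correlations of -0.11 to 0.09, against -0.11 to 0.14). With 3 arrays a tissue this cannot show whether the numbers pair them. The scripts were tested on simulated data, and 27 alternative settings were run. The values of some genes of these lists are not reported here.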

Additional observations from a re-analysis of the deposited data

Results flagged for a closer look

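For 68 of the 184 named genes the contrast of kidney against the mean of the other tissues differed between 90 and 10 weeks (limma interaction, adjusted p under 0.05, 12 arrays an age). The genes were chosen on the young arrays, so a move toward 0 is in part fixed by that choice, and the cause was not tested. Values are given for 66 of them, as the 90-week minus the 10-week contrast in log2 units.

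Of 41 named solute carrier genes (Slc and Slco), 21 differed. Among these the change was -5.01 for Slc22a7, -3.84 for Slc22a19, -2.96 for Slc7a13, -2.63 for Slc4a1, -2.23 for Slc3a1, -2.05 for Slc26a1, -1.98 for Slc22a13, -1.96 for Slc7a8 and -1.92 for Slc22a12. It was smaller for the others, at -1.84 for Slc17a3, -1.82 for Slc7a7, -1.79 for Slc12a3, -1.71 for Slc8a1, -1.63 for Slc17a1, -1.51 for Slc22a22, -1.19 for Slco1a6, -1.12 for Slc34a1, -1.05 for Slc5a10, -0.93 for Slc22a6, -0.84 for Slc4a4 and -0.83 for Slc22a8. Of these, Slc22a7 went from a contrast of 9.76 to 4.75.

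Among the other genes with a young contrast above 0, not all of them kidney-high, the change was -4.29 for Pvalb, -3.44 for Kcnj10, -3.43 for Mep1b, -3.22 for Atp6v0d2, -2.94 for Napsa, -2.72 for Gatm, -2.66 for Cyp7b1, -2.55 for Calb1, -2.30 for Vdr, -2.14 for Tmem52b, -1.82 for Esrrb and -1.77 for Treh. Atp6v0d2 was shared with lung and Cyp7b1 with liver. For the remaining genes it was -1.70 for Hmx2, -1.70 for Cyp4b1, -1.70 for Insrr, -1.56 for Odc1, -1.52 for Cubn, -1.43 for Oxgr1, -1.41 for Casr, -1.39 for Cckar, -1.30 for Cela1, -1.27 for Avpr2, -1.15 for Aqp3, -0.98 for Tmem174 and -0.86 for Ren1. Pvalb, a distal convoluted tubule gene, went from a contrast of 4.07 to -0.21. In the opposite direction, the contrast was greater at 90 weeks by 2.57 for Cyp27b1.

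Among genes low in the young kidney, the change was 9.58 for Cfd, 6.85 for Serpina3n, 5.68 for Ear2, 5.38 for Hp, 4.74 for C3, 4.27 for Lum, 4.01 for Aldh1a1, 3.997 for Lyz2, 3.96 for Spon2 and 3.16 for Cidec. It was 3.12 for Mrc1, 2.80 for Aox1, 2.38 for Postn, 2.08 for Rbp4, 2.02 for Adrb3, 1.61 for Adgre1, 1.53 for Cd68, 1.32 for Dcn and 1.12 for Pparg. Cfd went from -8.32 to 1.27 (SE of the change 2.23), and its young kidneys differed among themselves. Its aged arrays were scattered too, at -0.19, 2.09 and 3.70 in kidney, -7.02, -3.06 and 2.87 in lung and -6.23, -6.42 and -0.83 in liver. The change is therefore not a measure of the kidney alone. For Hp the aged contrast was -5.78.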

How the results depend on the processing

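Limits: 3 arrays a tissue, 1 slide per tissue, 1 WAT array that stands apart, and dim probes that give only bounds. These bounds hold for the main processing. Over 22 settings with the same threshold, adjusted p and age, the smallest difference was as low as 6.78 units for Hsd3b4 and 9.33 for Calb1. For Slc12a3 it was as low as 6.28 and for Umod 11.59. The main bounds of these 4 genes were 12.12, 10.74, 7.75 and 13.34 units.

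Under a 2-fold threshold the counts were 1735 kidney-high, 1082 kidney-low, 4986 higher and 5042 lower than the mean of the other tissues, and 2018, 439 and 501 shared with liver, lung and WAT. Under an 8-fold threshold they were 485, 141, 1147, 892, 150, 50 and 27. With normexp background correction, 195 were kidney-low (592 kidney-high), 1355 higher and 1183 lower than the mean, 289, 76 and 42 shared, and 7 adhesion genes kidney-high. With spike-in scaling, which moved the median kidney minus lung difference of all genes from 0.21 to -0.75, the shared counts were 218, 264 and 39, so that lung exceeded liver, against 441 and 139, and 44.1% of the calls against the mean were higher, against 50.1%. With the other 9 arrays as 1 group, 1325 were higher and 749 lower. limma's treat against a 2-fold difference, in place of the 4-fold threshold, gave 754 shared with liver, 126 with WAT and 6 transcription factors. Genes with a symbol alone gave 269 shared with liver and 46 with WAT. The methods' t-test gave 749 kidney-high and 348 kidney-low genes after adjustment and 805 and 363 before it, with 5 and 7 transcription factors. At 90 weeks the counts were 118 kidney-low, 1090 lower than the mean, 206 shared with liver, 210 with lung, 17 transcription factors, 8 adhesion genes and 2 androgen-responsive genes. A replicate block gave 846 kidney-high and 377 kidney-low genes, and whether the numbers pair the samples is not known.

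Leaving out 1 array at a time gave 805 to 925 kidney-high, 362 to 405 kidney-low, 2026 to 2234 higher and 2002 to 2153 lower than the mean, 410 to 503, 128 to 191 and 71 to 92 shared with liver, lung and WAT, 8 to 18 transcription factors and 4 to 6 adhesion genes. Among the named genes, a called difference changed sign at 90 weeks alone, where it was 0.79 for Adgre1, -3.40 for Atp6v0d2, 6.36 for Cfd, 3.23 for Lum, 0.17 for Lyz2, -1.23 for Pvalb and -1.55 for Slc22a7. The cause was not tested.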
